A study of Mus musculus with 6 samples.

Results

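Antimicrobial proteins and innate sensors were read as 9 genes on the arrays of cultured bulge cells: the antimicrobial proteins Lcn2, Slpi, Saa3, Defb1 and Pglyrp1, the pattern receptors Tlr2 and Tlr4, the co-receptor Cd14 and the adaptor Myd88. The rule used gene symbols and no measured value, and every probe set listed with only 1 of these symbols was kept. However, the 9 genes and the lists below were chosen with earlier results of these data known. Shares set beside those of all genes are therefore descriptions only. All 9 had at least 1 probe set, and together they had 13 of the 45037 probe sets that are not controls. Where a gene had several, its value is that of the probe set with the brightest mean on the log2 scale, a rule applied to all 18193 genes of the array.

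The cells came from the bulge region of vibrissa (whisker) follicles of mice aged 7 to 8 weeks, taken by microdissection and enzymes so as to hold both hair follicle stem cells and their niche cells. By the series design they were divided between 2 media, and they were cultured for 6 days in a gel of 1% atelocollagen, and the procedure was repeated 3 times, giving what the labels call biological replicates. The 3 NFFSE cultures received Noggin, which blocks BMP signaling, the growth factors FGF-7 and FGF-10, SAG, an agonist of hedgehog signaling, and EGF at 50 ng/ml. The 3 NFFS cultures received the same factors without EGF. The labels name no genetic change, and the methods name C57BL/6N and other strains without stating which gave these arrays.

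Skin and hair follicle epithelium is a barrier that makes its own antimicrobial proteins. Lcn2 (lipocalin 2) binds bacterial siderophores and so withholds iron, Slpi (secretory leukocyte peptidase inhibitor) blocks serine proteases such as neutrophil elastase, Saa3 is an acute phase protein of the serum amyloid A family, Defb1 is a beta-defensin that damages microbial membranes, and Pglyrp1 binds bacterial peptidoglycan. Tlr2 recognizes bacterial lipoproteins and Tlr4, with its partner Ly96 (MD-2), recognizes lipopolysaccharide, which Cd14 hands to it. Myd88 passes the signal of most Toll-like receptors and of the interleukin-1 receptor family on to NF-kappa-B.

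The values are MAS5 signals, linear intensities that the authors scaled to the same trimmed mean on each array. Control probe sets for TrpnX, a transcript that mouse cells lack, reached at most 22.7 in 18 values, and signals up to that level are called background. The median signal of an array was 56.5 to 65.0 in NFFSE and 66.5 to 70.6 in NFFS. The log2 difference between the 3' and 5' control probe sets of Gapdh, a sign of RNA quality, was -0.38 to -0.36 on the NFFSE arrays and -0.63 to -0.60 on the NFFS arrays. That of Actb overlapped, with 0.26 to 0.29 on the NFFSE arrays and 0.26 to 0.37 on the NFFS arrays. The part of RNA quality in the results was not tested. The labelled cell type was checked on 12 keratinocyte and bulge markers, of which 0 were at background on all arrays. In NFFSE 5 were higher (Cd34, Itgb4, Itga6 or CD49f, Krt14 and Epcam) and 3 were lower (Lhx2, Sox9 and the bulge keratin Krt15). Over all genes, 11.0% were higher and 15.2% lower. Krt5, a keratin of basal cells, gave 32291, 37118 and 37329 in NFFSE and 25999, 30368 and 28235 in NFFS.

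NFFSE cultures had more signal for Slpi, Defb1, Lcn2, Cd14 and Myd88, 5 of the 9 genes, and less for 0 of them, while Saa3, Pglyrp1, Tlr2 and Tlr4 did not pass (limma over all genes, Benjamini-Hochberg adjusted p at the threshold of 0.05). Over all 18193 genes, 11.0% were called higher and 15.2% lower, together 26.2%. The folds of the 5 genes ran from 1.79 for Myd88 to 14.7 for Slpi. The NFFSE arrays lay above all NFFS arrays for 6 of the 9 genes, the same 5 and Tlr2, against 18.5% of all genes, and below them for 0, against 22.0%. The same 6 genes had an unadjusted p under 0.05, as did 35.6% of all genes. Since an array reads the RNA of a whole culture, more cells with a transcript and more of the transcript in each cell cannot be told apart.

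**Figure D1:**
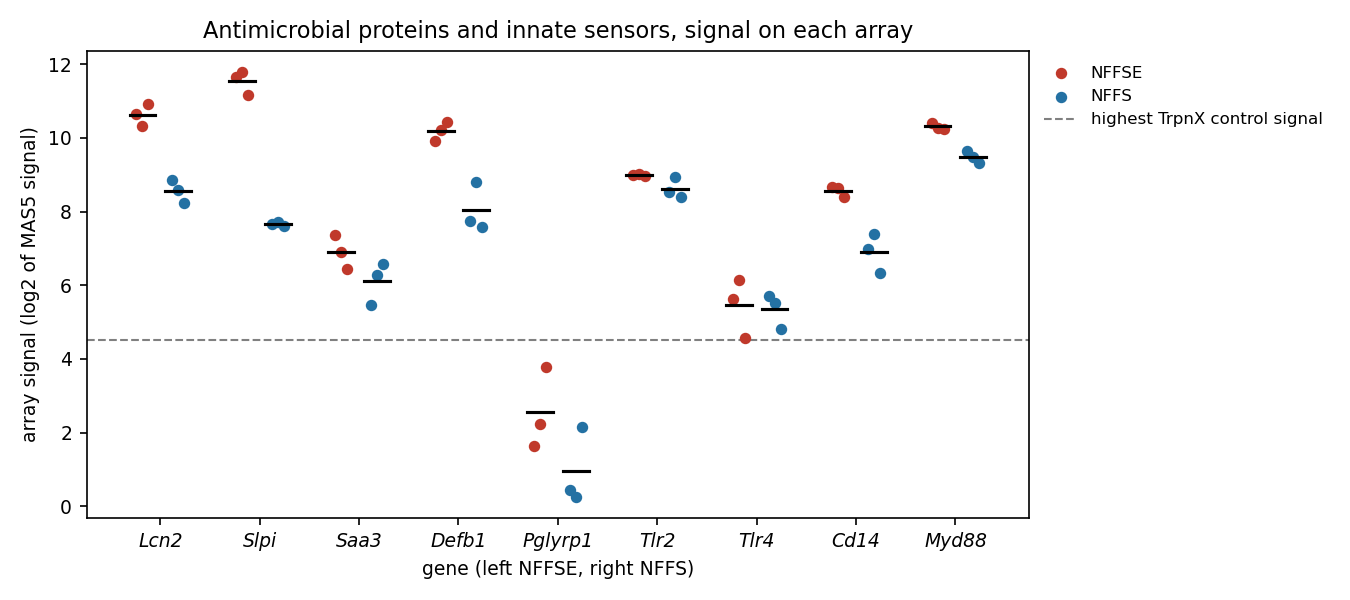
Log2 of the MAS5 signal of the 9 genes on each of the 6 arrays, with NFFSE left of NFFS, a dot for each array and a bar for the mean of each medium. The arrays of the media separate for Slpi, Lcn2, Defb1, Cd14, Myd88 and, narrowly, Tlr2, and overlap for Saa3 and Tlr4, while Pglyrp1 stays under the dashed background line on every array.

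The regions upstream of 4 of the genes are shown first. They were chosen for their motif matches, C/EBP in the 3 antimicrobial genes and NF-kappa-B in the receptor gene. RefSeq sequences of GRCm38.p6 were at hand for 6 of the 9 genes (Lcn2, Slpi, Saa3, Pglyrp1, Tlr2 and Myd88), as windows of 250 bases before to 50 bases after the start of the gene. Both strands were searched for the C/EBP motif TTNNGCAA, the AP-1 motif TGANTCA and the NF-kappa-B consensus. Capitals mark the matches in the 250 bases before the start, read 5' to 3' toward the gene; Slpi lies at chr2:164356508-164356757, Lcn2 at chr2:32387740-32387989, Saa3 at chr7:46715677-46715926 and Tlr2 at chr3:83841609-83841858, all on the minus strand.
Slpi: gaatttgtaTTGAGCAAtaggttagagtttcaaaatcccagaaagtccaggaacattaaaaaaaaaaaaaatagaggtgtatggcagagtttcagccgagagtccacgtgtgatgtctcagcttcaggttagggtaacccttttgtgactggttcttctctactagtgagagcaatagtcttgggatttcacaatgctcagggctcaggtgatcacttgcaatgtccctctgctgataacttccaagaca
Lcn2: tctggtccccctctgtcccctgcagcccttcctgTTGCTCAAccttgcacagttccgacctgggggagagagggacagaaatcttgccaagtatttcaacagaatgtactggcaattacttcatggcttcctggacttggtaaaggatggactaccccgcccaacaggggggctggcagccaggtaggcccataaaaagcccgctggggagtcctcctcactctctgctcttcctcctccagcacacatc
Saa3: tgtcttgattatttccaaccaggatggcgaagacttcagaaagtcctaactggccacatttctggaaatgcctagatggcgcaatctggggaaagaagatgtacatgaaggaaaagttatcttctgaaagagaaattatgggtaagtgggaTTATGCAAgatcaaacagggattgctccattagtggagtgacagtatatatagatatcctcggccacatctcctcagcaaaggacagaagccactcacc
Tlr2: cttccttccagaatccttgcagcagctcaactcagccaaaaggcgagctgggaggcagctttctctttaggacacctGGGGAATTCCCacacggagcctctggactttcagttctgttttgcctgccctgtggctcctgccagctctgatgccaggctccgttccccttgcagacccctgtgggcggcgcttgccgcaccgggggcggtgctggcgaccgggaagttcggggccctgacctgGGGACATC
The C/EBP motif was found once in each of the 3 antimicrobial genes printed, at -241 in Slpi, -216 in Lcn2 and -99 in Saa3. Pglyrp1, the other antimicrobial gene with a window, held no C/EBP match. Of 32851 windows of this length, 10.8% held the motif. The NF-kappa-B consensus was found in Tlr2, as overlapping matches at -173 and -172 and as a match that starts at -8 and runs past the start of the gene, and in Pglyrp1 at -93, and 4.51% of the windows held it. No window of the 6 genes held the AP-1 motif, which 7.81% of all windows held, and the Myd88 window held none of the motifs. A match is a description of the sequence only, and Slpi and Saa3, which share the C/EBP motif, differed in whether they passed the test.

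Among the antimicrobial proteins, Slpi had the largest difference of the 9 genes. Its signal was 3245, 3544 and 2290 in NFFSE and 202, 209 and 195 in NFFS. The lowest NFFSE array thus lay far above the highest NFFS array, and the NFFS arrays were within a few percent of each other. The difference was 3.88 on the log2 scale (SE 0.16, 95% interval 3.51 to 4.24, limma adjusted p = 4.9e-07), or 14.7-fold, and stood at place 46 among the 18193 genes ordered by their difference.

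Lcn2 gave 1592, 1273 and 1930 in NFFSE and 467, 387 and 302 in NFFS. The media did not overlap, and the array pair of replicate 3 held both the highest NFFSE signal and the lowest NFFS signal. Lcn2 was 4.16-fold higher in NFFSE (log2 difference 2.06, SE 0.19, 95% interval 1.62 to 2.49, limma adjusted p = 4.2e-05).

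Defb1 gave 967, 1200 and 1391 in NFFSE and 213, 448 and 193 in NFFS. All NFFSE arrays were higher than all NFFS arrays, although the second NFFS array was more than double either of the others of its medium. The fold was 4.44 (log2 difference 2.15, SE 0.29, 95% interval 1.51 to 2.79, limma adjusted p = 3.6e-04). A second probe set of Defb1, of the kind that can also take up related transcripts, gave 532, 680 and 584 in NFFSE and 131, 268 and 93.8 in NFFS. It showed the same order of the media with a log2 difference of 1.999 (95% interval 1.29 to 2.71, limma adjusted p over all probe sets = 0.00147).

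Saa3 gave 166, 119 and 87.3 in NFFSE and 44.5, 77.4 and 95.1 in NFFS. The media overlapped, since the third NFFSE array lay below the third NFFS array. The log2 difference was 0.80 with a 95% interval of -0.03 to 1.63 (limma adjusted p = 0.16), so that a difference of this size was not separated from the spread between arrays. Pglyrp1 was at background on all 6 arrays, with 3.10, 4.71 and 13.7 in NFFSE and 1.35, 1.20 and 4.42 in NFFS. No fold is given for it, and its adjusted p was 0.28.

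Among the sensors, Cd14 differed most. Its signal was 403, 402 and 334 in NFFSE and 128, 167 and 80.5 in NFFS. The lowest NFFSE array was 2 times the highest NFFS array. Cd14 was 3.16-fold higher in NFFSE (log2 difference 1.66, SE 0.27, 95% interval 1.07 to 2.26, limma adjusted p = 0.0011). An antibody against CD14 was also part of the flow cytometry panel of the study, whose measurements were not analysed here.

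Myd88 gave 1369, 1242 and 1221 in NFFSE and 799, 718 and 635 in NFFS. The arrays of each medium lay close together and the media did not overlap. The difference of 0.84 on the log2 scale (SE 0.12, 95% interval 0.56 to 1.11, limma adjusted p = 7.0e-04) was the smallest of the 5 that passed, at 1.79-fold.

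Tlr2 gave 512, 518 and 496 in NFFSE and 367, 493 and 335 in NFFS. The NFFSE arrays were nearly equal and all lay above the NFFS arrays, but the second NFFS array came within a few units of the lowest NFFSE array. The log2 difference of 0.37 (SE 0.17, 95% interval 0.00 to 0.74) did not pass (limma adjusted p = 0.14). Without NFFS replicate 2 it was 0.54 and passed (adjusted p = 0.023), and with arrays centered on their medians it was 0.57 and passed (adjusted p = 0.037).

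Tlr4 was dim. Its brightest probe set gave 49.7, 71.2 and 23.9 in NFFSE and 52.4, 45.8 and 28.1 in NFFS. The media overlapped fully, and the third array of each medium was the lowest. The log2 difference was 0.11 (SE 0.50, 95% interval -1.01 to 1.23, limma adjusted p = 0.91), an interval that holds differences of about 2-fold either way. The other 3 probe sets of Tlr4 had log2 differences of -1.08, -0.88 and 1.34, with 2, 4 and 5 of the 6 arrays at background, and none was called over all probe sets (limma adjusted p = 0.44, 0.57 and 0.59). The direction of Tlr4 turned with the probe set and with the arrays used: it was -0.13 over the mean of all probe sets, -0.24 without NFFSE replicate 2 and -0.16 without NFFS replicate 3. Over all probe sets of the array, 20.4% were called in either direction and 7.69% higher. Of the 13 probe sets of the 9 genes, 6 were called, all higher.

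**Figure D2:**
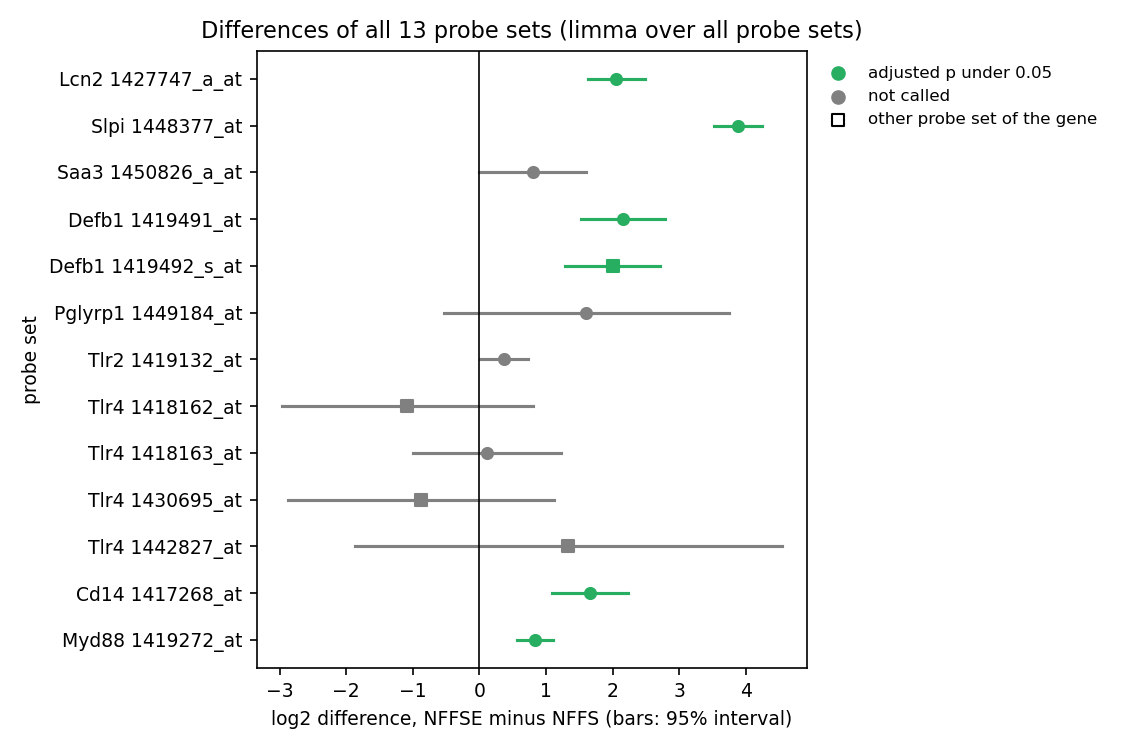
Log2 difference, NFFSE minus NFFS, of all 13 probe sets of the 9 genes from limma over all probe sets, with 95% intervals; green marks an adjusted p under 0.05 and squares mark the other probe sets of a gene. The probe sets of Defb1 lie together near 2, whereas the 4 of Tlr4 spread on both sides of 0 with wide intervals.

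By the series design, each repeat divided its cells between the media, and arrays with the same replicate number were taken to be of the same repeat. The deviations of such arrays from the means of their media correlated only weakly (0.066, 0.042 and 0.037 over all genes). Arrays of the 2 media with different numbers gave -0.041 to -0.002. All 3 pairs ran upward for Lcn2 (log2 differences 1.77, 1.72 and 2.68 for replicates 1, 2 and 3), Defb1 (2.18, 1.42 and 2.85), Cd14 (1.66, 1.27 and 2.05) and Myd88 (0.78, 0.79 and 0.94). Slpi ran upward too, by 4.003 in replicate 1, 4.08 in replicate 2 and 3.55 in replicate 3. In Lcn2, Defb1 and Cd14 replicate 3 gave the widest difference and replicate 2 the narrowest, while in Slpi replicate 3 gave the narrowest. Tlr2 also ran upward in each pair, with 0.48, 0.07 and 0.57, the second of them close to 0. Saa3 gave 1.90, 0.62 and -0.12, so that its mean rested on replicate 1. Tlr4 gave -0.08, 0.64 and -0.23. Among all genes, 26.1% were higher in all 3 pairs.

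**Figure D3:**
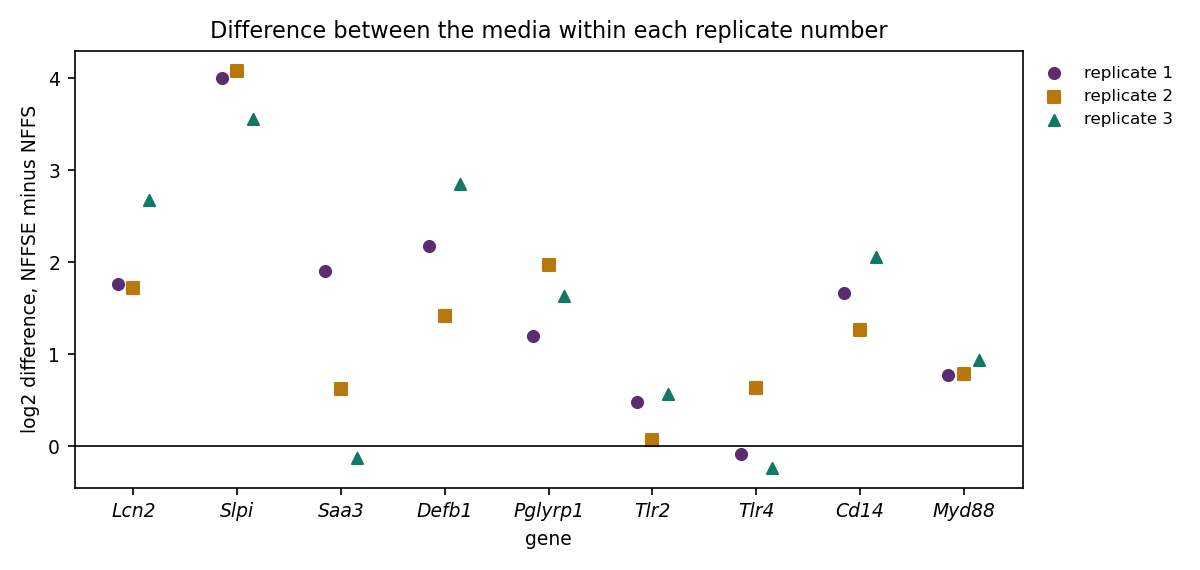
Log2 difference between the NFFSE and the NFFS array of the same replicate number for the 9 genes, with 1 symbol for each replicate. All 3 symbols lie above 0 for 7 genes, including Pglyrp1, whose signals were all at background, and they lie on both sides of 0 for Saa3 and Tlr4.

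Other genes of the same pathways were followed in 6 lists, of which 104 of 121 genes were measured: 16 were called higher, 9 lower and 79 neither. These are 15.4% and 8.65% of the measured genes, against 11.0% and 15.2% of all genes. With arrays centered on their medians, 23 were higher and 8 lower.

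The median log2 difference of 24 other antimicrobial proteins measured was 0.18 against -0.01 over all genes. Of them 5 were higher and 1 was lower (20.8% and 4.17%, against 11.0% and 15.2% of all genes). Only 3 were higher without NFFSE replicate 1, NFFSE replicate 2 or NFFS replicate 2. S100a9, which pairs with S100a8 to form calprotectin, a protein that withholds zinc and manganese, gave 3753, 2636 and 2684 in NFFSE and 27.7, 90.7 and 20.6 in NFFS, where 1 of the 3 arrays was at background. Its log2 difference was 6.32 (limma adjusted p = 7.8e-06), with 5.90 without NFFS replicate 3 and 6.97 without NFFS replicate 2. S100a8 differed by 6.21 on the log2 scale (limma adjusted p = 1.3e-05), with 5.63 and 6.88 without the same 2 arrays. Pglyrp2, an amidase that cleaves peptidoglycan and belongs to the family of Pglyrp1, gave 151, 143 and 117 in NFFSE and 13.5, 1.56 and 1.496 in NFFS, which is at background, so that it was at least 6.00-fold higher (limma adjusted p = 8.2e-04).

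Camp, the precursor of the cathelicidin peptide, ran the other way. It was at background in NFFSE, with 12.8, 6.89 and 9.18, against 89.5, 189 and 171 in NFFS, and so was at least 6.28-fold lower in NFFSE (limma adjusted p = 1.9e-04). The remaining 2 calls of the list, named after their values were seen, were the chitinase-like Chil1, 1.66-fold higher with overlapping arrays (limma adjusted p = 0.028), and the beta-defensin Defb4, 2.52-fold higher with 1 NFFS array at background (limma adjusted p = 0.037). Antimicrobial proteins thus did not all move the same way.

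Of 17 other Toll-like receptors and accessory proteins, 0 passed in either direction by limma and 2 had an unadjusted p under 0.05, against the 35.6% of all genes. Those were Cnpy3, a chaperone of Toll-like receptors, with a log2 difference of -0.49 (adjusted p = 0.067), and Ly96, the partner of Tlr4, with 0.39 (adjusted p = 0.068). Ly96 passed in 5 of the 15 alternatives run and Cnpy3 in 2. Unc93b1, which carries receptors to endosomes, and the DNA receptor Tlr9 gave 0.70 and 1.70 with adjusted p of 0.17 and 0.19, and Tlr9 was at background on 4 arrays and passed without NFFS replicate 2 (2.56, adjusted p = 0.045). Of the 17, Tlr1, Cd36 and Ly86 were at background on all arrays, and Tlr6, Tlr7, Tlr8 and Tlr13 on some. For such dim genes the lack of a call does not show a lack of change.

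Below the receptors, 3 of 18 genes of Toll-like receptor signaling were higher and 2 were lower, with a median log2 difference of 0.11. These are 16.7% and 11.1%, against 11.0% and 15.2% of all genes. Tnfaip3 (A20), which edits ubiquitin and restrains NF-kappa-B, gave 1895, 2123 and 2595 in NFFSE and 927, 660 and 580 in NFFS, a log2 difference of 1.63 (limma adjusted p = 1.2e-04). Its partner Tnip1 differed by 1.03 (limma adjusted p = 0.0054) and did not pass when low signals were set to a floor, when limma's trend was left out or in the methods' t-test (adjusted p = 0.060, 0.060 and 0.10). Tab3 and Tab2, which link the kinase TAK1 to ubiquitin chains, were lower by log2 differences of -0.82 and -0.45 (limma adjusted p = 6.6e-04 and 0.011). Tirap, which bridges Tlr2 and Tlr4 to Myd88 and was named after its values were seen, was 1.60-fold higher (limma adjusted p = 0.015). The call of Tab2 was lost with arrays centered on their medians, without limma's trend, in the methods' t-test (adjusted p = 0.16, 0.081 and 0.058) and without NFFSE replicate 2 or NFFS replicate 3 (adjusted p = 0.055 and 0.051).

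**Figure D4:**
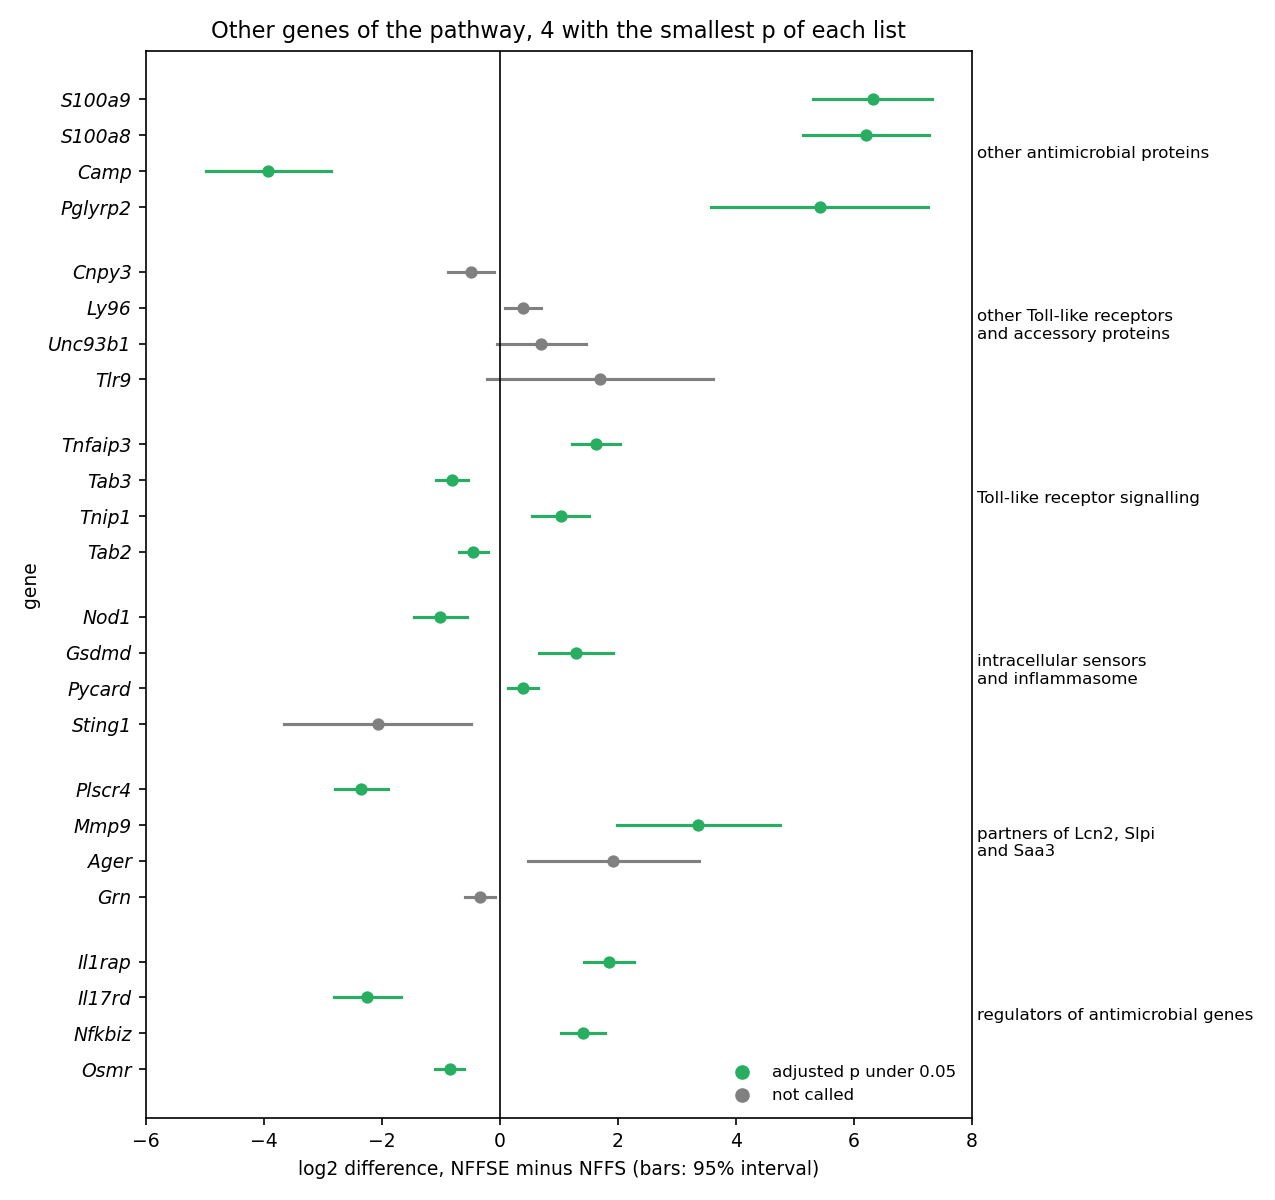
Fitted log2 difference, NFFSE minus NFFS, with its 95% interval for the 4 measured genes with the smallest p in each of the 6 pathway lists, green where the adjusted p was under 0.05. The genes lie on both sides of 0 in every list, from S100a9 at 6.32 to Camp at -3.93, both with arrays at background, and no gene of the Toll-like receptor list is green.

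The median log2 difference of 18 intracellular sensors and inflammasome genes was 0.37. Of them 2 were higher and 1 was lower (11.1% and 5.56%, against 11.0% and 15.2% of all genes). These counts were small and moved: leaving out 1 array gave 1 to 3 higher and 1 to 3 lower, and the methods' t-test gave 0 higher. Nod1, which senses fragments of peptidoglycan inside the cell, gave 228, 175 and 187 in NFFSE and 485, 325 and 388 in NFFS, a log2 difference of -1.01 (limma adjusted p = 0.0040). Gsdmd, whose cleaved form makes pores in the membrane, was higher by 1.28 (limma adjusted p = 0.0069, and 0.063 in the methods' t-test). Pycard (ASC), the inflammasome adaptor, was higher by 0.39 (limma adjusted p = 0.028), but its call was lost in 10 of the 15 alternatives, 5 of them fits that leave out 1 array, and its difference was -0.047 over the mean of its probe sets. Sting1, the adaptor of cytosolic DNA sensing, gave -2.08 (limma adjusted p = 0.057) with 1 NFFSE array at background, and -1.09 without that array, NFFSE replicate 1. It passed in 7 of the 15 alternatives, among them the replicate as a block (adjusted p = 0.023).

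Of 10 partners of Lcn2, Slpi and Saa3, 1 was higher and 1 was lower (10% each, against 11.0% and 15.2% of all genes). Mmp9, a gelatinase that Lcn2 binds, gave 465, 381 and 399 in NFFSE and 91.1, 61.3 and 11.6 in NFFS, where 1 of the 3 arrays was at background. Its log2 difference was 3.36 (limma adjusted p = 0.0026, and 0.089 in the methods' t-test), with 2.47 without NFFS replicate 3 and 3.95 without NFFS replicate 1. Plscr4, a scramblase reported to bind Slpi, was lower by a log2 difference of -2.35 (limma adjusted p = 2.5e-05). Grn, the progranulin that Slpi protects from cleavage, had a log2 difference of -0.33 and did not pass (limma adjusted p = 0.058). Ager, a receptor that binds serum amyloid A and S100 proteins, was at background on all 3 NFFS arrays and at least 1.61-fold brighter in NFFSE, and did not pass either (limma adjusted p = 0.055, and 0.026 without NFFS replicate 1). With the replicate as a block both passed (adjusted p = 0.040 and 0.041).

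Of 17 regulators of antimicrobial genes in keratinocytes, 5 were higher and 4 were lower (29.4% and 23.5%, against 11.0% and 15.2% of all genes). Over the mean of all probe sets 5 were higher and 1 was lower. Il1rap, the shared co-receptor of the interleukin-1 family, gave 3284, 2625 and 2483 in NFFSE and 960, 835 and 571 in NFFS, a log2 difference of 1.85 (limma adjusted p = 6.7e-05). Nfkbiz, which acts with NF-kappa-B on Lcn2 and other targets, was higher by 1.41 (limma adjusted p = 1.7e-04). Il17rd, of the interleukin-17 receptor family, and Osmr, the oncostatin M receptor, were lower by log2 differences of -2.25 and -0.85 (limma adjusted p = 1.4e-04 and 3.0e-04), and over the mean of its probe sets Il17rd differed by -1.41 and Osmr did not pass (adjusted p = 0.45). The other calls, named after their values were seen, were Rela, Il17rc and Zc3h12a higher and Il1rl2, the interleukin-36 receptor, and Il1r1, the interleukin-1 receptor, lower.

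Lcn2, Slpi, Cd14 and Tlr2 are also made by neutrophils and macrophages, so the markers of these cells are given beside them. Of 10 leukocyte markers, 0 passed by limma and 1 had an unadjusted p under 0.05, beside the 35.6% of all genes, and their summed signal was 246 to 391 in NFFSE and 273 to 329 in NFFS. Ptprc (CD45), carried by all leukocytes, gave 31.5, 29.5 and 21.8 in NFFSE and 10.1, 14.2 and 15.3 in NFFS, close to or under background. Of 12 macrophage and monocyte markers, 0 passed by limma and 1 had an unadjusted p under 0.05, with a summed signal of 543 to 793 in NFFSE and 555 to 612 in NFFS. Cd163, C1qa and C1qc were at background on all arrays. Others were above it on all arrays, among them Cd68 (mean 159 in NFFSE and 208 in NFFS) and Csf1r (158 and 121). Of 8 neutrophil markers, Cxcr2 was higher (at least 2.14-fold) and Camp, also counted above among the antimicrobial proteins, lower, with a summed signal of 242 to 333 in NFFSE and 235 to 328 in NFFS. Without Camp, left out after its values were seen, the other 7 summed to 235 to 324 in NFFSE and 115 to 156 in NFFS. Of these 7, Cxcr2, Mmp8 and Csf3r were at background on all 3 NFFS arrays, and Mpo, Ltf and Elane on 1 or 2 of them. The NFFS sum without Camp is thus made mostly of signals at or near background. The NFFSE arrays lay above all NFFS arrays for 4 of the 8 (18.5% of all genes), 3 had an unadjusted p under 0.05, and the median log2 difference was 0.65. The part of such cells in the differences of Lcn2, Slpi, Cd14 and Tlr2 was not tested.

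**Figure D5:**
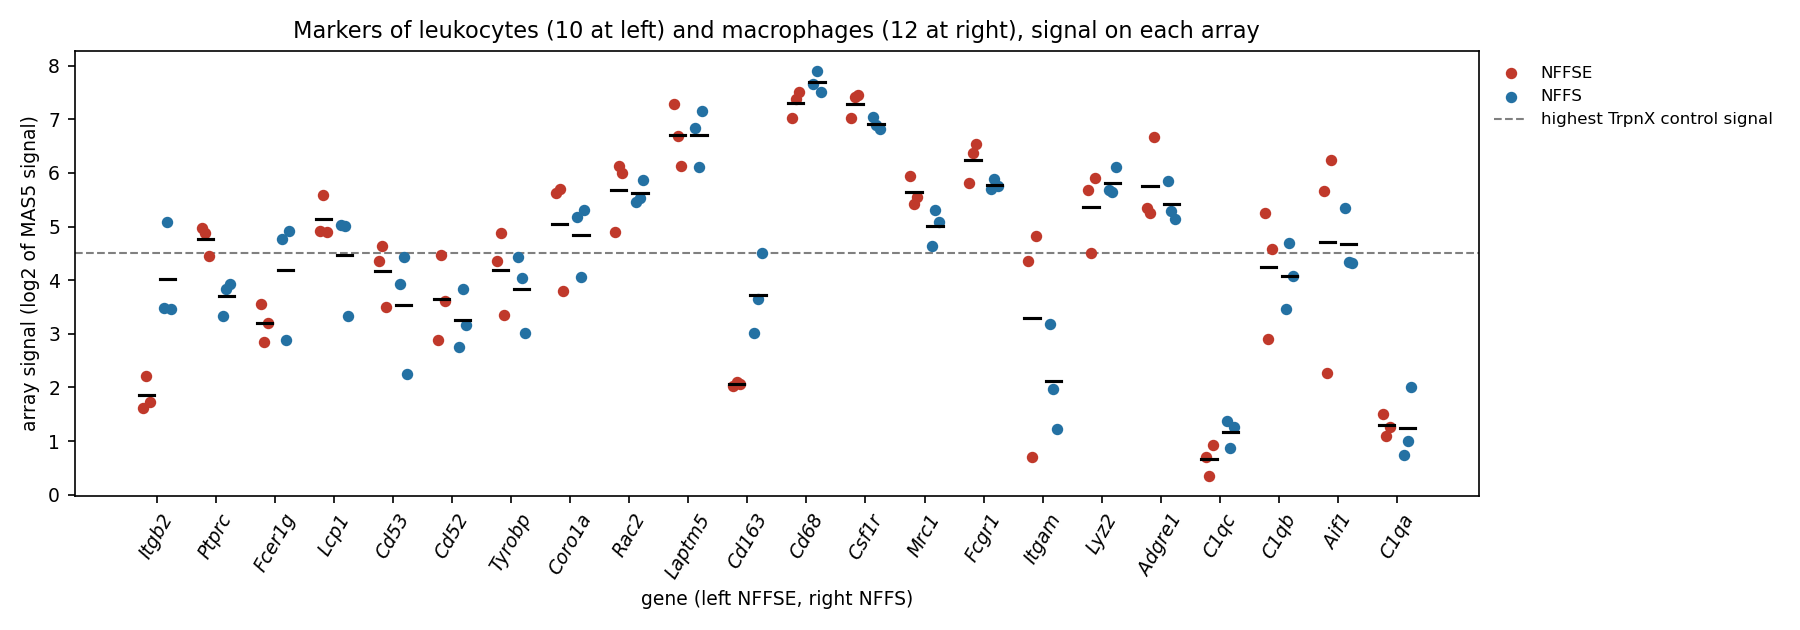
Log2 of the MAS5 signal of 10 leukocyte markers (left) and 12 macrophage and monocyte markers (right) on each array, with NFFSE left of NFFS and a bar for the mean of each medium. The dashed line is the highest TrpnX control signal, and Ptprc lies close to it in NFFSE and under it in NFFS. Cd163, C1qa and C1qc lie under it on all arrays, while Cd68 and Csf1r lie above it on all arrays.

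Of 8 Langerhans and dendritic cell markers only H2-Eb1, of MHC class II, passed, lower in NFFSE with 1 NFFSE array at background. Of the 8, 2 had an unadjusted p under 0.05. The other was H2-Ab1, also of class II, which leaned higher in NFFSE (log2 difference 0.89, limma adjusted p = 0.11). Cd207, the langerin of Langerhans cells, was at background on all arrays. Of 6 T cell markers only Thy1 passed, lower in NFFSE. Of 11 fibroblast and dermal papilla markers 4 were lower (Sparc, Vcan, Col1a2 and Vim), 0 were higher and 7 did not pass. Over all genes, 15.2% were lower and 11.0% higher. Of the 7, Dcn and Pdgfrb leaned lower in NFFSE, and Pdgfra, Lum, Alpl, Col1a1 and Col3a1 leaned higher. Col1a1 averaged 41.0 in NFFSE and 33.7 in NFFS, and Col3a1 31.6 and 30.4, all not far above background. The summed signal of the 11 markers, most of it from Sparc, was 2826 to 2828 in NFFSE and 7193 to 8625 in NFFS. Without Sparc it was 582 to 655 in NFFSE and 1488 to 2315 in NFFS. The part of such cells in the differences of the 9 genes was not tested. Of 8 endothelial and 8 melanocyte markers 0 passed by limma, with 1 and 0 at an unadjusted p under 0.05.

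Likeness to Slpi was read only among genes with a mean at or above percentile 60 of all genes in their higher medium. Of these, the genes whose log2 signal followed that of Slpi most closely over the 6 arrays were Klk11, Sptssb and Il1f9. Klk11, a serine protease of the kallikrein family, had a Pearson correlation of 0.9996 with Slpi and averaged 420 ± 44.5 in NFFSE and 95.5 ± 4.05 in NFFS (SD, n = 3 each). Sptssb, a subunit of the enzyme that starts sphingolipid synthesis, had 0.9990 and averaged 1999 ± 351 in NFFSE and 159 ± 18.7 in NFFS (SD, n = 3 each). Il1f9, interleukin-36 gamma, had 0.9985 and averaged 423 ± 74.2 in NFFSE and 62.8 ± 5.35 in NFFS (SD, n = 3 each). These correlations are a description, since all points share the split between the media.

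Of the genes that flank the 9 on the chromosome, 2 to each side by the protein-coding gene order of RefSeq, 32 were measured. Of these 32, 1 was higher and 5 were lower, beside 11.0% and 15.2% of all genes. Beside Slpi, Svs5 did not pass (log2 difference 0.80, limma adjusted p = 0.17), Svs6 was at background and Matn4, a matrix protein, was at background on the 3 NFFSE arrays and at least 2.81-fold lower there (limma adjusted p = 7.6e-04). The genes next to Saa3 include its relatives Saa1 and Saa4, with log2 differences of 0.26 and 0.09, and neither passed (limma adjusted p = 0.79 and 0.96). Next but one to Lcn2, Slc25a25 was higher by 1.07 (limma adjusted p = 0.0018), and the genes directly beside Lcn2 did not pass. Around Tlr4, which itself did not pass, Trim32 and Cdk5rap2 were lower (log2 differences -1.61 and -1.05, limma adjusted p = 3.9e-04 and 0.0066). Brinp1, at background on the 3 NFFSE arrays, was at least 3.83-fold lower (limma adjusted p = 0.0051).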

How the data were processed

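Probe set signals came from 6 Affymetrix mouse genome arrays, 3 NFFSE and 3 NFFS cultures, from 100 ng of RNA each. The deposited values are the authors' MAS5 intensity values on a linear scale (in a version that the sources used here do not give), scaled so that each array had a mean of 500.003 without the lowest and highest 2%. The log2 of the deposited intensity was fitted here with limma 3.58.1 in R 4.3.3 (lmFit, eBayes with trend). Differences are NFFSE minus NFFS, and p-values were adjusted by Benjamini-Hochberg over 18193 genes. Folds are antilogs of log2 differences. Where all 3 arrays of a medium were at background, "at least" sets the brighter mean of log2 signals against that of the higher of 22.7 and each dimmer signal. Of 45101 probe sets, 64 controls were left out, 34945 had 1 gene symbol and 932 with several and 9160 without were not named. The number of arrays limits the precision.

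The 9 genes and all lists were chosen with earlier results of these data known. Genes named by rule were the 9, up to 4 of each list with the smallest p and the 3 bright genes most like Slpi. Flanking genes were taken by position. Other names, such as Krt5, C1qa and Col1a1, were added outside this rule. Arrays with the same number were taken as pairs, from the series design, and their deviations correlated by 0.066, 0.042 and 0.037, under 0.1. Alternatives were centering, quantile normalization, 16 added to the signals, a floor, a filter on dim genes, the mean of probe sets, no trend, the methods' t-test, the replicate block and leaving out each array. The fit was tested on simulated data. Sequences are from RefSeq.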

Additional observations from a re-analysis of the deposited data

How the results depend on the processing

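Slpi, Lcn2, Defb1, Cd14 and Myd88 passed in all 15 alternatives run, and Saa3 and Pglyrp1 in none. Over them, the highest adjusted p was 0.0061 for Slpi, 0.019 for Lcn2, 0.044 for Defb1 and Cd14 and 0.021 for Myd88. Leaving out 1 array at a time gave log2 differences of 3.75 to 4.07 for Slpi, 1.89 to 2.21 for Lcn2, 1.92 to 2.53 for Defb1, 1.38 to 1.90 for Cd14, 0.75 to 0.92 for Myd88, 0.48 to 1.03 for Saa3, 0.99 to 2.20 for Pglyrp1, 0.26 to 0.54 for Tlr2 and -0.24 to 0.55 for Tlr4. The floor and the filter on dim genes gave no value for Pglyrp1, nor the filter for Tlr4. With the replicate as a block, 5 of the 9 genes were again called higher, with log2 differences of 3.88 for Slpi and 2.06 for Lcn2, and the calls of all 9 were as without it. The directions that turned were those of Tlr4 (-0.13) and Pycard (-0.047), both over the mean of all probe sets, and of Tlr4 without 1 array as given above, and the cause was not tested.

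The median log2 difference of the 9 genes, 1.60, is the value of Pglyrp1, which was at background. It was 0.84 with a floor, 0.82 with 16 added, 1.80 with centering and 1.03 to 1.62 without 1 array. Over all genes, 2002 were higher and 2771 lower in NFFSE. Centering moved the median of all genes by 0.19 and gave 3013 higher and 1974 lower, and Tlr2 then passed at 0.57. Without the trend 1323 were higher, and the methods' t-test gave 1262 higher and 1702 lower, both with all 6 arrays. Leaving out 1 array gave 1403 to 2099 higher and 2132 to 2704 lower. Of the listed genes 12 to 17 were then higher and 9 to 11 lower, and the filter on dim genes gave 14 lower.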
